A study of Mus musculus with 5 samples.

Results

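The integrin and laminin genes were followed across the nuclei of developing mouse hindlimb muscle. Members were all gene expression features whose symbol was Itga or Itgb followed by a chain designation, or Lama, Lamb or Lamc followed by a number, which gave 42 of the 32285 genes counted. They comprised 11 laminin chains, 27 integrin chains (18 alpha and 9 beta) and 4 genes that share the name but encode no chain: Itgb1bp1, Itgb1bp2, Itgb3bp and Itgbl1. Of these, 36 reached 20 UMIs (unique molecular identifiers, each standing for 1 captured transcript) in at least 1 nucleus class of 1 library. The 6 that did not were Itgad, Itgal, Itgax, Itgb2, Itgb7 and Itgb2l, which are mainly integrin chains of leukocytes, with at most 19 UMIs each. Among the 42, 15 overlap another annotated gene, 14 of them one on the opposite strand (Itga4 and Cerkl, Itga7 and Mettl7b, Lamb3 and Hsd11b1, for example), and whether the counting used strand is not stated.

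Integrins are paired alpha and beta chains in the plasma membrane that bind the extracellular matrix outside the cell and couple it, through talins and kindlins, to actin inside. Laminins are cross-shaped trimers of an alpha, a beta and a gamma chain that polymerise into the basement membrane around each muscle fibre, and the alpha chain largely sets which receptor binds them. In skeletal muscle the laminin with the alpha2 chain, held by the alpha7 beta1 integrin and by dystroglycan, anchors the fibre, and loss of LAMA2 or ITGA7 causes congenital muscular dystrophy or myopathy in people.

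Hindlimb skeletal muscle freed of skin and bone came from Cacna1s-/- C57bl6n mice at E18.5 (an embryonic day), here called KO, and from wild-type (WT) C57bl6n mice at E14.5, E18.5, P5 (a postnatal day) and adulthood. Cacna1s encodes the pore subunit of the muscle calcium channel whose movement triggers contraction, and muscles that lack it are paralysed. Nuclei were sorted for PCM1, a protein on the envelope of myonuclei, and positive and negative fractions were mixed in equal volumes, so shares of nuclei reflect the sort and not the tissue. Each nucleus gave both an RNA and an open chromatin (ATAC) profile, in 1 library per group. Each library pooled several limbs, 26 for the KO and 56, 14, 8 and 4 for the WT stages in order.

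With 1 library per group no difference below has a replicate check, and no test across samples could be run. The WT library at E18.5 serves in the comparisons with E14.5, with P5 and with the KO, so these are not independent of each other. Every interval is a 95% exact Poisson or conditional binomial interval that covers counting error only. Nuclei were assigned by their own RNA to 5 exclusive classes, called gates in the plots: at least 1% of UMIs from Ttn (titin, myonuclei), or at least 1 UMI of Pax7 (myogenic progenitors), Pdgfra (mesenchymal cells), Tnmd (tenomodulin, tendon cells) or Pecam1 (endothelium), with nuclei that met more than 1 condition left out. After quality filters 3228 KO nuclei and 3747 to 5106 WT nuclei per library remained, with 21063081 to 29574992 UMIs in each library. The Ttn class held 704 KO nuclei and 1618, 1152, 1362 and 4189 WT nuclei in stage order, and the other classes held 24 to 1196 nuclei, apart from adult Tnmd (2) and adult Pecam1 (12). Those 2 were not compared. Cacna1s itself checked the labels: 5 UMIs (0.704 CPM, counts per 1000000 UMIs of the class) in KO Ttn nuclei and 1736 (214.3 CPM) in WT Ttn nuclei at E18.5.

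Markers of the classes followed their names with some exceptions. A list of 14 myonuclear genes summed to 34140 CPM in KO Ttn nuclei and to between 21080 and 54920 CPM in WT ones, against at most 4224 CPM in any other class at E18.5. The list of 12 mesenchymal markers, mostly matrix genes, summed to more in Tnmd nuclei (14510 CPM in WT at E18.5) than in Pdgfra nuclei (10140 CPM), while the 9 tendon markers summed to 3218 and 1306 CPM there, so that class is called Tnmd nuclei here and not tendon cells. In Pax7 nuclei the 10 progenitor markers summed to 1713 CPM in KO and to 1483, 1854, 2738 and 3334 CPM over the WT stages, above every other class of at least 20 nuclei, but the myonuclear list summed to more in all but the E14.5 library: 4224 CPM in KO and 1358, 2922, 4211 and 8688 CPM in WT. That class is therefore called Pax7 nuclei, by its rule. In Pecam1 nuclei the 10 endothelial markers summed to 4778 CPM in KO and to 5633, 6134 and 4802 CPM in WT at E14.5, E18.5 and P5. The mesenchymal list summed there to 462.9 CPM in KO and to 516.7, 2249 and 3953 CPM in WT. Among the 291 barcode sequences that occurred in more than 1 library, 0 had the same counts in both.

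At E18.5 in WT muscle, Itgb6 and Itgb1bp2 were higher in myonuclei than in the other classes. Lamb3 and, against the other classes pooled, Itga7 and Lama5 were higher less strongly. In the Ttn class, 5 of 34 measured members were at least 2-fold higher than in the other 4 classes together and 15 at least 2-fold lower (14.4% and 31.1% of all genes measured), so the share that was higher is close to that of all genes. A member counted as measured when 1 side of a comparison had 20 UMIs, and a difference of at least 2-fold was the threshold used throughout. Itgb6, the beta chain that pairs with alphav in epithelia to activate TGF-beta, stood at 309.6 CPM in Ttn nuclei and 5.91 CPM elsewhere, 52.4-fold higher (40.7 to 68.7). Itgb1bp2, which encodes melusin, a muscle chaperone that binds the tail of beta1 integrin, stood at 851.3 and 22.3 CPM, 38.2-fold higher (33.5 to 43.8). Lamb3, a chain of epithelial laminin, was 6.53-fold higher (4.23 to 10.5) and Itga7, the laminin-binding alpha chain of muscle, 6.26-fold (5.37 to 7.34). Lama5, an alpha chain of mature basement membranes, was 2.51-fold higher (2.01 to 3.14). Pax7 nuclei had more Itga7 and Lama5 than Ttn nuclei, at 143.5 and 60.1 CPM. Lama5 in Pecam1 nuclei, at 35.2 CPM (22.8 to 52.0), was not below that in Ttn nuclei.

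**Figure D1:**
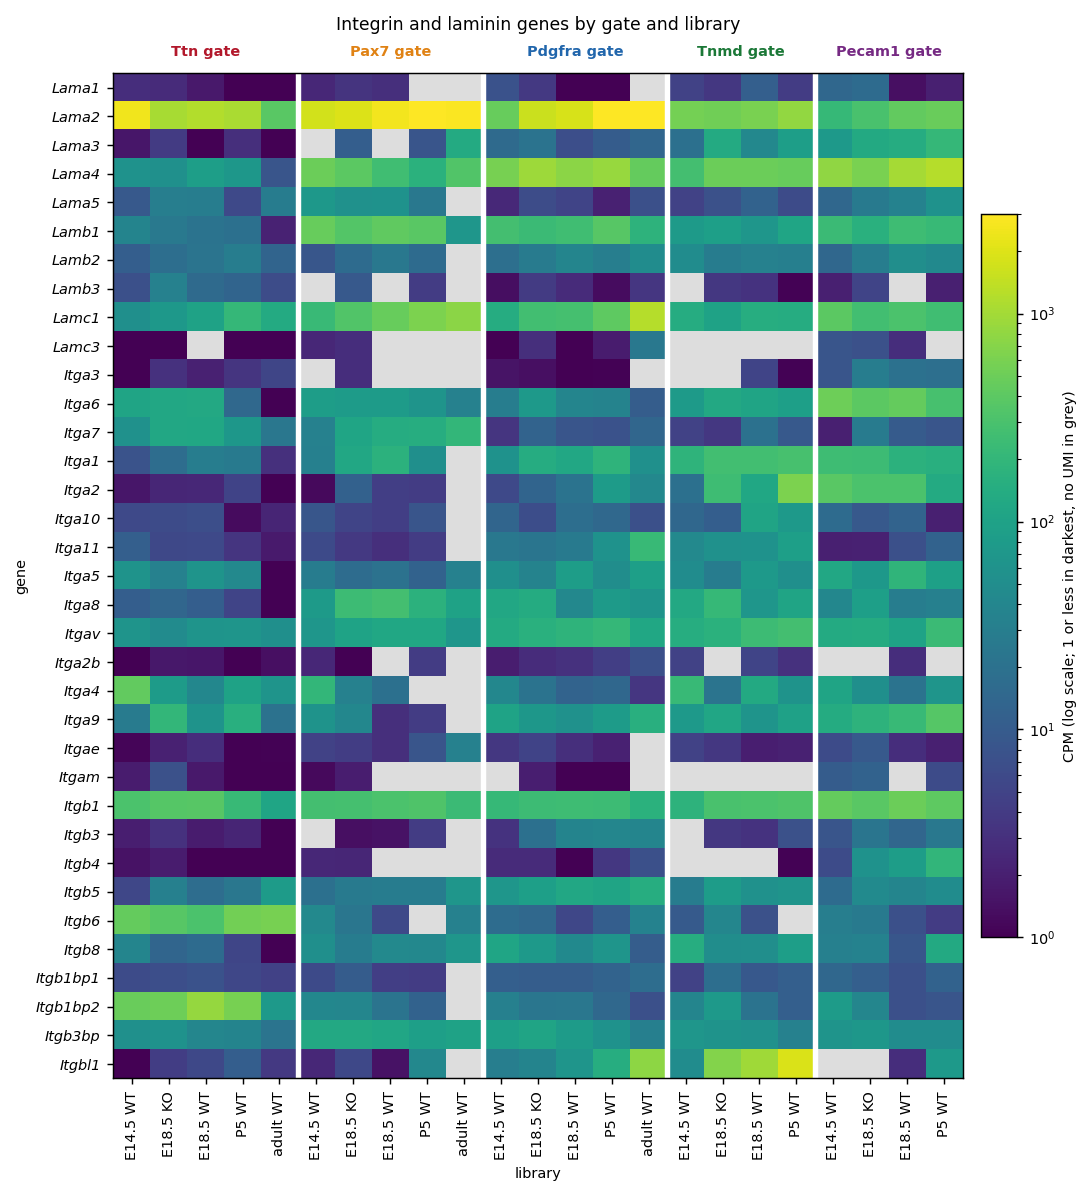
Levels of 35 members with at least 20 UMIs, in counts per 1000000 UMIs on a logarithmic colour scale, for each nucleus class and library (grey, no UMI). Itgb6 and Itgb1bp2 fill the Ttn block. Itgbl1 in the Tnmd block and Itgb4 in the Pecam1 block are lowest at E14.5 (48.5 and 6.15 CPM) and higher in the other libraries drawn there. Itgbl1 is also high in adult Pdgfra nuclei. Itgb1 is present in every block, at 366.7 CPM in KO Ttn nuclei and 379.3 CPM in WT ones at E18.5.

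Pax7 nuclei were higher in Itga8 and in several laminin chains, and shared Itga7 with myonuclei. Of 35 measured members, 6 were higher in Pax7 nuclei than in the other classes and 12 lower (12.1% and 15.7% of all genes). Itga8, whose product binds nephronectin and fibronectin, stood at 275.4 CPM against 29.2 CPM, 9.42-fold higher (7.93 to 11.2). Lamb1 and Lamc1, the beta and gamma chains of most muscle laminins, were 3.22- and 2.46-fold higher, and Lama5 and Itga7 3.29- and 2.39-fold.

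Pdgfra nuclei were higher in Itgb3 and Itgb5, beta chains of vitronectin receptors, and, against the other classes pooled, in Lamb1 and Lama4. In the Pdgfra class 18 of 34 members were apart from the other classes (35.5% of all genes), 5 of them higher and 13 lower. Itgb3 was 13.3-fold higher (9.19 to 20.0) at 37.5 CPM, Itgb5 4.91-fold (4.28 to 5.64) at 122.4 CPM and Itgb8 2.02-fold at 45.4 CPM, all of them partners of alphav. For Itgb8 that holds against the other classes pooled, since Tnmd nuclei had 51.7 CPM and Pax7 nuclei 43.9 CPM. The laminin chains Lama4, an alpha chain of vessels and fetal muscle, and Lamb1 were 3.51- and 3.80-fold higher. That too holds against the pool, since Pecam1 nuclei had more Lama4 (1012 CPM) and Pax7 nuclei more Lamb1 (424.8 CPM) than Pdgfra nuclei.

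Tnmd nuclei were high in the collagen-binding integrins. There 10 of 34 members were higher than in the other classes pooled and 8 lower (9.29% and 15.2% of all genes). The alpha chains of all 4 collagen receptors were among the higher ones: Itga10 8.83-fold (7.14 to 10.9), Itga2 4.96-fold, Itga11 4.03-fold and Itga1 3.23-fold. Pecam1 nuclei had more Itga2, though, at 310.1 CPM against 116.5 CPM in Tnmd nuclei. Itgbl1, a secreted protein with repeats like those of beta integrins but no membrane anchor, stood at 963.2 CPM in Tnmd nuclei and 31.1 CPM elsewhere, 30.9-fold higher (28.0 to 34.3). The remaining 5 were Itga4, Lama3, Itgav, Itga3 and Itga2b, between 2.03- and 4.88-fold, and for Itga3 and Itga2b, at 8 UMIs each, the interval included 1. Lama3 and Itga3 were also higher in Pecam1 nuclei, at 142.4 and 19.7 CPM, than in Tnmd nuclei.

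Pecam1 nuclei carried the alpha6 beta4 pair that in epithelia builds hemidesmosomes. Of 35 members, 8 were higher in Pecam1 nuclei and 8 lower (13.3% and 14.3% of all genes). Itgb4 had 61 UMIs in 31 of the 117 nuclei and 10 UMIs in all other classes together, which put it 152-fold higher (77.5 to 334). Itga6 stood at 445.4 CPM, 5.16-fold higher, Itga2 at 310.1 CPM, 15.5-fold higher, and Lama3 at 142.4 CPM, 20.5-fold higher. Itga3, Itga9, Itga5 and Lama4 made up the 8, at 11.7-, 3.87-, 2.57- and 2.47-fold.

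Ranked per kilobase of gene, since long genes give nuclear reads from their introns, Itgb1bp2 led myonuclei at 191 CPM per kb, followed by Itgb1 at 7.98 and Itga7 at 4.88. Itgb1, the common beta chain, was among the leading members of every class, with 5.33 CPM per kb in Pdgfra nuclei at the low end and 10.4 in Pecam1 nuclei at the high end. Lama2, the member with the highest raw level in Ttn nuclei (1177 CPM), stood at 1.84 CPM per kb there and at 4.13 in Pax7 nuclei.

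**Figure D2:**
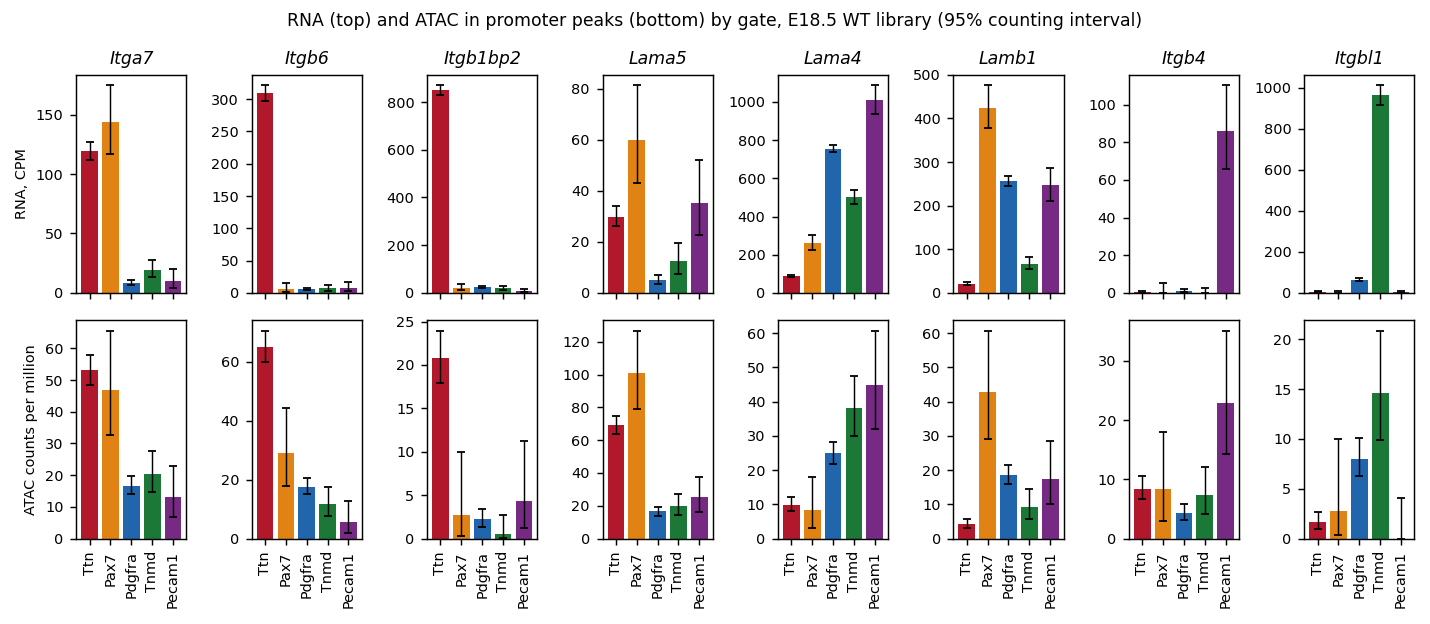
RNA (upper panels, counts per 1000000 UMIs) and open chromatin within 2 kb of the gene start (lower panels, counts per 1000000 peak counts) of 8 members in the 5 nucleus classes of the WT E18.5 library, with 95% counting intervals. RNA and promoter accessibility of Itgb6 and Itgb1bp2 are both highest in Ttn nuclei, those of Itga7 are high in Ttn and Pax7 nuclei, and those of Itgbl1 are highest in Tnmd nuclei.

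Accessibility at the start of the gene, counted in the peaks within 2 kb, was highest in the same class as the RNA for some of these genes within the WT E18.5 library and not for others. At Itgb6 it was 65.2 counts per 1000000 peak counts in Ttn nuclei, 29.0 in Pax7, 17.6 in Pdgfra, 11.7 in Tnmd and 5.46 in Pecam1 nuclei. Itgb1bp2 had 20.8 in Ttn nuclei and at most 4.37 elsewhere, and Itga7 53.1 and 47.0 in Ttn and Pax7 nuclei and at most 20.5 elsewhere. Lama5 had 101 in Pax7 and 69.1 in Ttn nuclei, with 16.5 to 25.1 in the other classes. Lamb1 was most open in Pax7 nuclei (42.8), Lama4 and Itgb4 in Pecam1 nuclei (44.8 and 22.9), and Itgbl1 in Tnmd nuclei (14.6, against 0 counts in Pecam1 nuclei, whose interval reaches 4.03). For other genes it did not follow the RNA: accessibility over the other classes was 1.14-fold (0.643 to 1.87) for Itga8 and 1.16-fold for Lamc1 in Pax7 nuclei, 1.01-fold for Itga1 and a ratio of 0.991 for Itga11 in Tnmd nuclei, and 1.48-fold (0.698 to 2.80) for Lama3 in Pecam1 nuclei. With a window of 1 kb, Itga7 had 16.2 in Ttn and 35.9 in Pax7 nuclei and at most 10.9 elsewhere, and Itgb6 40.3 in Ttn, 15.2 in Pax7 and at most 5.95 in other nuclei. At Itgb1 the 5 classes lay between 51.1 and 79.0. RNA and accessibility come from the same nuclei of 1 library, so this is a description and not independent evidence.

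The promoters of 4 members that mark a class or change most with stage are shown, as RefSeq gives them for GRCm38.p6, 5′ to 3′ on the strand of the gene, with 250 bases before and 50 after its start. Capitals mark E-boxes, CANNTG on either strand, the element bound by MYOD, TWIST and other helix-loop-helix factors. Itgb6 (chr2:60722554-60722853, minus strand) marks myonuclei and Itgbl1 (chr14:123659890-123660189, plus strand) Tnmd nuclei. Lama5 (chr2:180225810-180226109, minus strand) was highest in Pax7 nuclei of the WT at E18.5. Itga4 (chr2:79255176-79255475, plus strand) is the chain that fell most in Ttn nuclei between E14.5 and E18.5.
Itgb6: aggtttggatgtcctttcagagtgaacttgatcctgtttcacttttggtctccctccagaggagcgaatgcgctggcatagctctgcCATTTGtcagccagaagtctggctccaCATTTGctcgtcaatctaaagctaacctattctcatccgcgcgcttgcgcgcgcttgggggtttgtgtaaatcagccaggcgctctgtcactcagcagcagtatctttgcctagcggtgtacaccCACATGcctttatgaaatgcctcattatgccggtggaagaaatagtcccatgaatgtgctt
Lama5: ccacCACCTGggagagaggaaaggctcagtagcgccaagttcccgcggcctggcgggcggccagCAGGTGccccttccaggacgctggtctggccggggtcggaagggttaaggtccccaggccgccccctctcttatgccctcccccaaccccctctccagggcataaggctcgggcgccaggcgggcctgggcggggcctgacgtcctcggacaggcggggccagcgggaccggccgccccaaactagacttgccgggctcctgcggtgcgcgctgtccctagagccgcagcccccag
Itgbl1: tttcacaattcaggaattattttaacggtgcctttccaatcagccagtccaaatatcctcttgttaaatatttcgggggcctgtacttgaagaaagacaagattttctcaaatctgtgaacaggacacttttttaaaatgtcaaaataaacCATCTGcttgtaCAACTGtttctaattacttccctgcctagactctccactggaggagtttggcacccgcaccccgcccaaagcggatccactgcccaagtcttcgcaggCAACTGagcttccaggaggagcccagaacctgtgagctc
Itga4: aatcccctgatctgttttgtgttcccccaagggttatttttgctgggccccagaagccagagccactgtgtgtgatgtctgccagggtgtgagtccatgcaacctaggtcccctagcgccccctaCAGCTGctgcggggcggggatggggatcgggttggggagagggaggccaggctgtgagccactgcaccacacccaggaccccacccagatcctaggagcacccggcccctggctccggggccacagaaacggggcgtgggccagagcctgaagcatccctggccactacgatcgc
A deposited peak overlapped the window in 5 libraries for Itgb6, Lama5 and Itga4 and in 3 libraries for Itgbl1. The single E-box of Itga4 reads CAGCTG, a form that MYOD and myogenin prefer. Of the 42 members, 27 matched the promoter table, with 30 windows in all. CANNTG occurred in 26 of the 30 (86.7%) and in 72.3% of all 32851 promoters of that length, and CAGCTG, which is contained in CANNTG, in 10 (33.3%) and in 16.3%. CATTCC, the TEAD element, was in 3 windows (10.0%, against 14.7% of all) and TGANTCA, the AP-1 element, in 3 (10.0%, against 7.81%), both strands searched. A match is a description of letters and not a bound site.

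Ttn nuclei lost Itga4 and gained several laminin and integrin chains before birth. Between E14.5 and E18.5, 10 of 29 measured members became higher and 3 lower (15.1% and 11.5% of all genes), with a median log2 ratio of 0.30, against 0.11 over all genes measured. Itga4, an alpha chain that binds VCAM1 and fibronectin, fell to 40.7 CPM at E18.5, against 432.5 CPM at E14.5, 10.6-fold lower (9.48 to 11.9). It was broadly spread at E14.5, with 3515 UMIs in 994 of 1618 nuclei. Lama2 fell to 1177 CPM at E18.5, against 2553 CPM at E14.5 (2.17-fold, 2.12 to 2.22), and Itgb8 to 16.4 CPM against 38.6 CPM (2.35-fold).

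The higher set joined laminin and collagen receptors with laminin chains. Itga1, a collagen receptor chain, was 3.84-fold higher at E18.5 than at E14.5 (2.90 to 5.15), Lama5 3.24-fold (2.49 to 4.25), Itgb5 3.21-fold (2.28 to 4.62) and Itga9, which binds tenascin and osteopontin, 2.19-fold (1.87 to 2.58). Itga7 stood at 119.5 CPM at E18.5 and 57.6 CPM at E14.5, 2.08-fold (1.86 to 2.32), a call that ended in 4 alternatives and reached 1.52-fold with a Ttn threshold of 2%. Lamb2, Lamb3, Itgae and Itgbl1 were also higher, and the calls of Lamb2 (1.89-fold at the least), Lamb3 (1.99), Itgae (1.94) and Itga9 (1.97) each ended in 1 alternative. In Ttn nuclei at E18.5 and E14.5 the mesenchymal markers summed to 579.6 and 269.2 CPM and the macrophage markers to 94.7 and 12.9 CPM. The progenitor markers summed to 248.8 and 531.4 CPM and the tendon markers to 100.1 and 373.4 CPM. The part of these in the differences between E14.5 and E18.5 was not tested.

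Between E18.5 and P5 the laminin receptor chain Itga6 fell in myonuclei while Itga9 and Itga4 rose. Higher at P5 were 5 of 31 measured members and lower 6 (8.6% and 24.7% of all genes). Itga6 fell to 14.8 CPM at P5, against 126.5 CPM at E18.5, 8.53-fold lower (7.10 to 10.3), while Itga7 was at 69.9 and 119.5 CPM, within 2-fold. Lama5 fell to 5.86 CPM against 29.9 CPM (5.10-fold, 3.75 to 7.04). Itga10, Itgb8, Itgae and Itga8 were lower by 5.47-, 3.04-, 3.09- and 2.15-fold. Itga9 and Itga4, sister chains of the same alpha subfamily, were both higher, at 155.2 CPM against 60.6 CPM (2.56-fold, 2.31 to 2.85) and at 101.1 CPM against 40.7 CPM (2.48-fold, 2.19 to 2.83). Lamc1 was 2.08-fold higher (1.91 to 2.26), and Lama3 and Itga2 were 3.03- and 2.05-fold higher at no more than 5.06 CPM. The calls of Itga8, Lama3, Itga2 and Itgb8 ended in at least 1 alternative, and that of Itga8 turned to a P5 over E18.5 ratio of 1.02 when nuclei were counted in each class they met. The scale matters here: the median log2 ratio of the members was -0.15 by total counts and 0.26 under TMM scaling, and that of all genes -0.42 and -0.01, so the sign of the members' median turns with it. In the same nuclei the macrophage markers summed to 348.5 CPM at P5 and 94.7 CPM at E18.5 and the progenitor markers to 68.7 and 248.8 CPM, and their part in these differences was not tested.

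**Figure D3:**
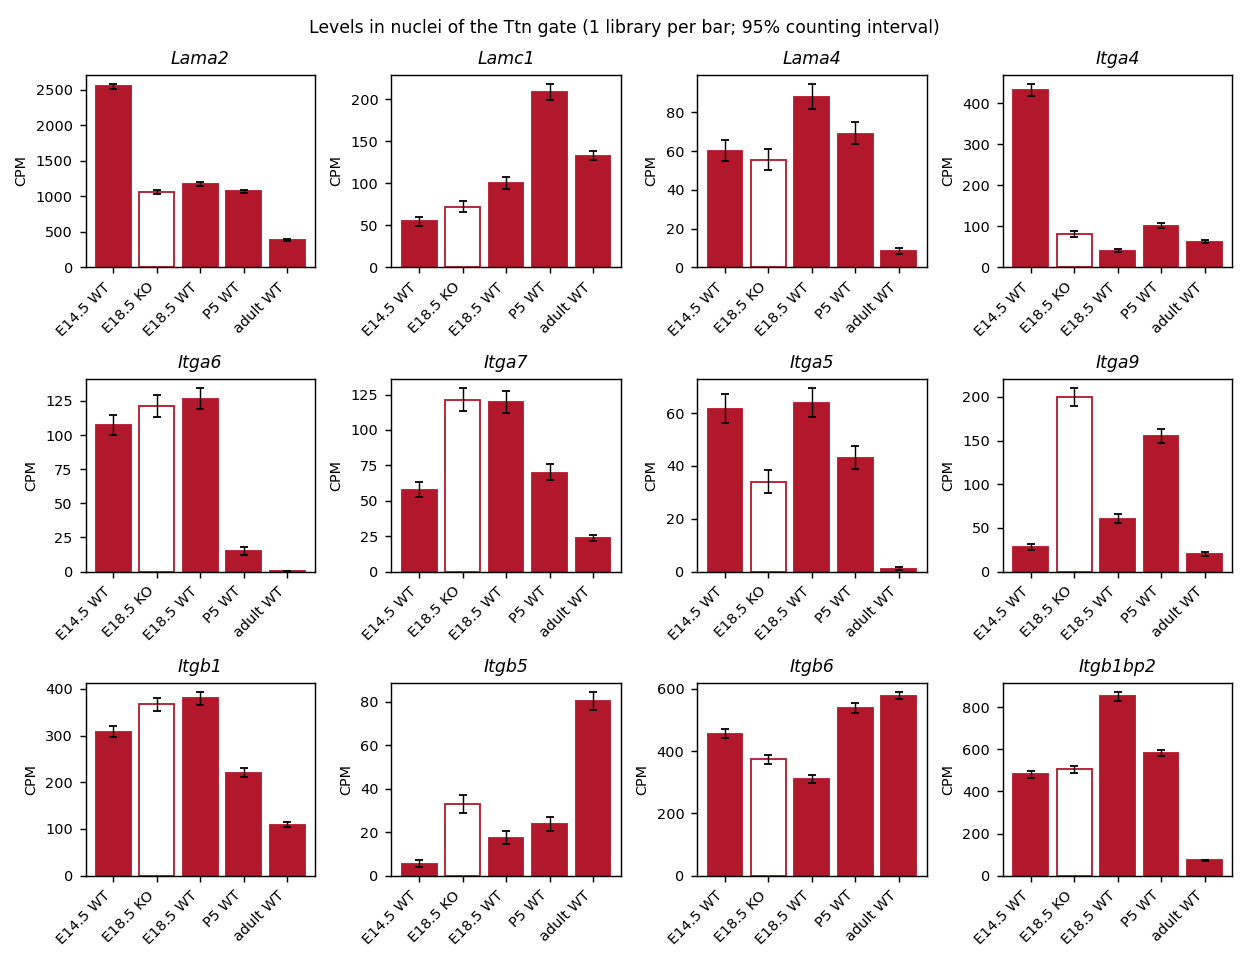
Levels of 12 members in Ttn nuclei, in counts per 1000000 UMIs with 95% counting intervals, for WT libraries by stage (filled bars) and the KO library (open bar, left of WT at E18.5). Itga4 is highest at E14.5 (432.5 CPM), Itga6 and Itga5 nearly vanish in adult (0.329 and 0.987 CPM), Itgb5 and Itgb6 are highest in adult, and Itga9 is higher in KO (199.5 CPM) than in WT (60.6 CPM) at E18.5.

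Adult myonuclei were low in most chains. Of 30 measured members, 18 were lower and 2 higher in adult than at P5 (27.4% and 10.1% of all genes), with a median log2 ratio of -1.33, against -0.22 over all genes, and of -0.95, against 0.15, under TMM scaling. Itga6 stood at 0.329 CPM in adult and 14.8 CPM at P5, 45.0-fold lower (20.1 to 125), and Itga5, the fibronectin receptor chain, at 0.987 and 43.1 CPM, 43.7-fold lower (27.2 to 74.5). Itgb8, Lamb1, Itga1, Lama4, Itgb1bp2 and Itga9 were 24.6-, 9.08-, 8.76-, 8.27-, 7.99- and 7.69-fold lower. The muscle laminin and its receptor fell less, Lama2 by 2.80-fold (2.72 to 2.89) to 383.5 CPM and Itga7 by 2.96-fold (2.61 to 3.36) to 23.6 CPM.

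Itgb5 was at 80.3 CPM in adult and 23.8 CPM at P5, 3.38-fold higher (2.92 to 3.92), in 959 of the 4189 adult nuclei, and Lama5 at 28.9 and 5.86 CPM, 4.93-fold higher (3.69 to 6.71). Lama5 thus followed a course of 9.23, 29.9, 5.86 and 28.9 CPM over the 4 WT stages. Itgb6 remained within 2-fold at 578.2 CPM in adult and 537.9 CPM at P5, and Itgav, its usual partner, at 54.1 and 64.5 CPM. The calls of Itgb1 (2.02-fold lower), Lamb2 (2.25-fold) and Lamb3 (2.10-fold) ended under TMM scaling, and that of Itgbl1 (2.85-fold lower) turned to 1.41-fold higher with a Ttn threshold of 2%. Ttn itself took 7.51% of the UMIs of this class in adult and 3.36% at P5, and the mesenchymal markers summed to 52.8 CPM in adult and 688.0 CPM at P5, the macrophage markers to 41.3 and 348.5 CPM and the progenitor markers to 11.1 and 68.7 CPM. The part of these in the differences was not tested.

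In KO myonuclei about as large a share of the members as of all genes was within 2-fold of WT at E18.5. In the KO, 28 of 32 measured members were within 2-fold of WT, 4 were higher and 0 lower (6.12% and 6.09% of all genes), and their median log2 ratio was -0.04, against -0.05 over all genes. The laminin receptor chains of the fibre differed little: Itga7 was at 121.3 CPM in KO and 119.5 CPM in WT (ratio 1.02, 0.925 to 1.11), Itgb1 at 366.7 and 379.3 CPM (0.967, 0.917 to 1.02), Itga6 at 121.0 and 126.5 CPM (0.957, 0.873 to 1.05) and Lama2 at 1064 and 1177 CPM (0.904, 0.877 to 0.932). Itgb1bp2, described as a stretch sensor in the heart, was at 505.4 CPM in KO and 851.3 CPM in WT, a ratio of 0.594 (0.570 to 0.618) that did not reach the 2-fold threshold. Dag1, the dystroglycan gene, stood at 343.3 and 353.2 CPM.

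Itga9 had 199.5 CPM in KO myonuclei and 60.6 CPM in WT myonuclei at E18.5, 3.29-fold higher (2.97 to 3.66), with 1418 UMIs in 335 of the 704 KO nuclei, and the ratio lay between 2.82 and 3.45 in every alternative. The KO level was also above those of WT myonuclei at E14.5 (27.7 CPM), P5 (155.2 CPM) and adult (20.2 CPM). Itga9 overlaps an antisense gene, Gm2415, whose reads cannot be told apart without strand. Its sister Itga4 was at 80.6 and 40.7 CPM, a ratio of 1.98 (1.73 to 2.27) that TMM scaling put at 2.00, just past the threshold. Lamb3 was 2.15-fold higher in KO (1.73 to 2.68, 1.91 with a Ttn threshold of 2%). Lama3 was 4.13-fold higher on 29 UMIs in 10 nuclei, 10 of them in 1 nucleus, a call that ended at 1.96-fold when nuclei were counted in each class they met. Itgam, a myeloid chain, was 4.15-fold higher (2.26 to 8.12) with 51 UMIs in 39 nuclei, beside a summed level of 8 macrophage markers of 87.0 CPM in KO and 94.7 CPM in WT. The 10 progenitor markers summed to 407.1 CPM in KO Ttn nuclei and 248.8 CPM in WT ones, and its part in these differences was not tested.

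**Figure D4:**
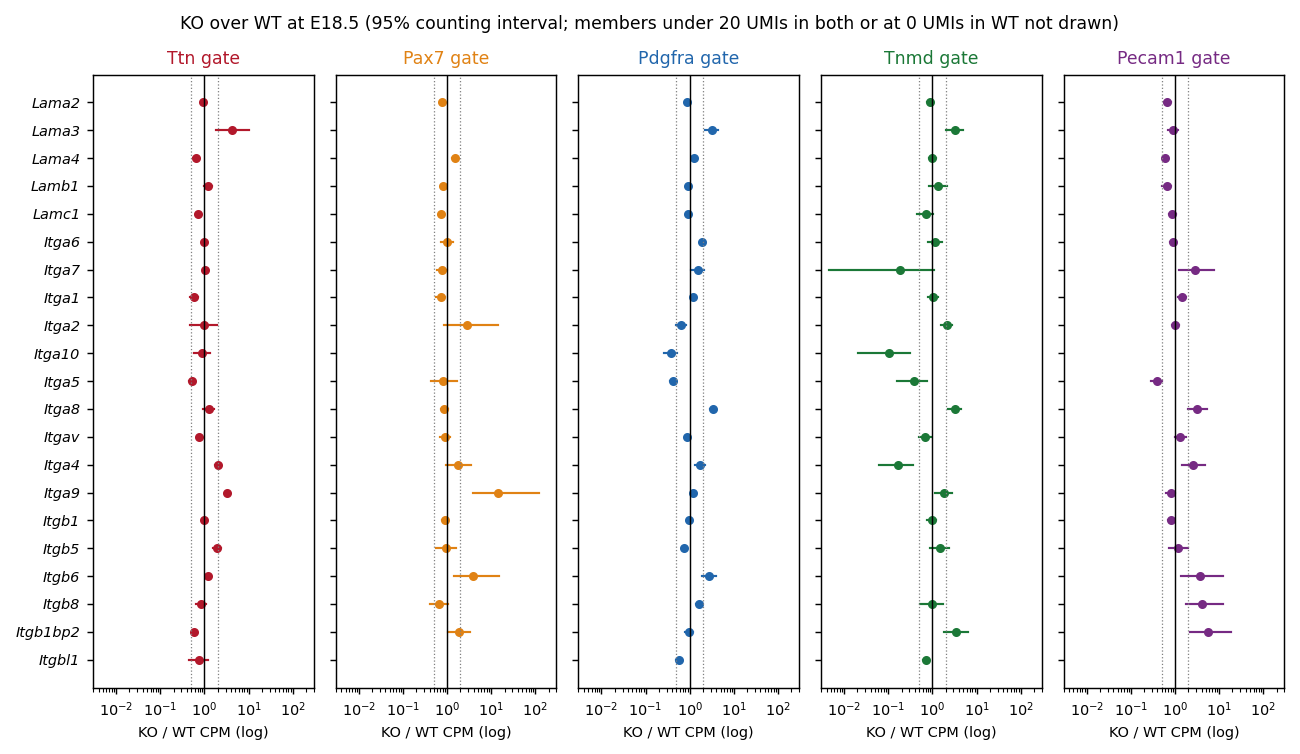
Ratio of KO to WT level at E18.5 for 21 members in the 5 nucleus classes, on a logarithmic axis, with 95% counting intervals (dotted lines, 2-fold lower and 2-fold higher). Itga8 lies right of the upper line in Pdgfra (3.28), Tnmd (3.19) and Pecam1 nuclei (3.11) and Itga5 left of the lower line in the same classes (0.414, 0.376 and 0.381).

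In Pdgfra nuclei Itga8 was higher and Itga5 lower in the KO than in WT. Of 32 measured members, 5 were higher and 2 lower (7.29% and 5.09% of all genes). Itga8 stood at 135.8 CPM in KO and 41.4 CPM in WT, 3.28-fold higher (2.88 to 3.74), which is near the 121.5 CPM of the WT at E14.5. Itga5 stood at 35.9 CPM in KO and 86.7 CPM in WT, 2.41-fold lower (2.09 to 2.80). Both calls held in every alternative, Itga8 between 2.46- and 3.52-fold and Itga5 between 2.24- and 2.56-fold lower. Itga10 was 2.73-fold lower (1.95 to 3.88). Lama3 was 3.11-fold higher (2.25 to 4.36), and the low chains Lama1 (27 UMIs in KO) and Lamc3 were 13.9- and 5.41-fold higher. Itgb6 was 2.71-fold higher at 15.0 CPM, and its call ended at 1.28-fold when nuclei were counted in each class they met. In KO and WT Pdgfra nuclei the myonuclear markers summed to 1218 and 959.9 CPM, the Schwann cell markers to 130.5 and 37.0 CPM, the macrophage markers to 298.9 and 122.0 CPM and the mesenchymal markers to 7366 and 10140 CPM, and their part in these differences was not tested.

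Itga8 and Itga5 had ratios in the same direction in Tnmd and Pecam1 nuclei of the same 2 libraries. In Tnmd nuclei Itga8 was at 210.7 CPM in KO and 66.1 CPM in WT, 3.19-fold higher (2.27 to 4.45), with 25 of the 58 KO UMIs in 1 of 41 nuclei, and Itga5 at 29.1 and 77.2 CPM, 2.66-fold lower (1.30 to 6.30). In Pecam1 nuclei Itga8 was at 92.2 and 29.6 CPM, 3.11-fold higher (1.92 to 5.28), with 27 of 89 KO UMIs and 9 of 21 WT UMIs in 1 nucleus each, though only 1.81-fold when nuclei were counted in each class they met, and Itga5 at 71.5 and 187.5 CPM, 2.62-fold lower (1.95 to 3.56). In Ttn nuclei Itga5 was at 33.9 and 63.8 CPM (ratio 0.531, within 2-fold) and Itga8 at 13.9 and 11.1 CPM. In Pax7 nuclei, where Itga8 is highest, it was at 240.3 CPM in KO and 275.4 CPM in WT. Fn1, the gene of fibronectin, was more than 2-fold lower in KO in the same 3 classes and in Ttn nuclei, at 320.9 CPM against 675.8 CPM in Pdgfra, 330.5 against 816.0 CPM in Tnmd, 184.4 against 391.8 CPM in Pecam1 and 15.3 against 34.7 CPM in Ttn nuclei. Tnc, the gene of tenascin-C, a ligand of alpha8 and alpha9 integrins, was at 35.9 CPM in KO and 125.9 CPM in WT Pdgfra nuclei, at 58.1 and 465.9 CPM in Tnmd nuclei and at 28.6 and 154.8 CPM in Ttn nuclei.

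In Pdgfra nuclei of the WT, Lama2 and several matrix receptor chains were higher at E18.5 than at E14.5. Between E14.5 and E18.5, 10 of 31 measured members became higher and 6 lower (8.66% and 10.8% of all genes). Lama2 was at 1850 CPM at E18.5 and 467.9 CPM at E14.5, 3.95-fold higher (3.79 to 4.13), against the fall seen in Ttn nuclei over the same interval. Itgb3 was 11.6-fold higher (7.09 to 20.1), at 37.5 CPM against 3.24 CPM. Itga2, Itga7, Itgbl1, Itga1, Lamc1, Lamb2, Lama5 and Lamb3 were between 2.01- and 3.51-fold higher, the interval of Lamb3 including 1. Lama1, the alpha chain of early embryonic basement membranes, fell to 2 UMIs at E18.5, against 39 at E14.5 (27.6-fold, 7.14 to 236). Itga4, Itgb6, Itga8, Itgb8 and Lama3 were 3.12-, 3.07-, 2.93-, 2.47- and 2.33-fold lower. The calls of Itga1, Itga7, Itgb6, Lama3, Lama5, Lamb2 and Lamc1 in this comparison ended in at least 1 alternative, Lama3 reaching 1.26-fold and Itgb6 1.30-fold at the least.

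Itgbl1 and the collagen receptor chain Itga11 were higher at each of the later stages. At P5, 3 of 30 members were higher than at E18.5 and 2 lower (3.92% and 9.24% of all genes): Itga2 at 80.9 CPM against 20.8 CPM (3.89-fold, 3.20 to 4.76), Itgbl1 2.30-fold and Itga11 2.24-fold higher, and Lama5 and Lamb3 2.45- and 2.06-fold lower, Lamb3 with an interval that included 1. The calls of Itgbl1 and Itga11 ended in at least 1 alternative, at 1.54- and 1.95-fold. In the 134 adult nuclei, 4 of 26 members were higher than at P5 and 7 lower (8.55% and 19.5% of all genes). Itgbl1 reached 765.9 CPM in adult, against 148.0 CPM at P5, 5.17-fold higher (4.41 to 6.06), Itga11 217.8 CPM against 58.4 CPM (3.73-fold) and Lamc1 1212 CPM against 414.1 CPM (2.93-fold, 2.60 to 3.29). Itgb6 was the last of the 4, 3.19-fold higher on 10 UMIs, and was at a ratio of 0.991 with a Ttn threshold of 2%. Itgb8, Itga6, Itga1 and Lamb1 were 6.09-, 3.38-, 3.26- and 2.15-fold lower, the calls of Itga1 and Lamb1 ending at 1.92- and 1.90-fold with 2 marker UMIs, and for the other 3, Itga4, Itga10 and Itgb1bp2, the interval included 1.

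**Figure D5:**
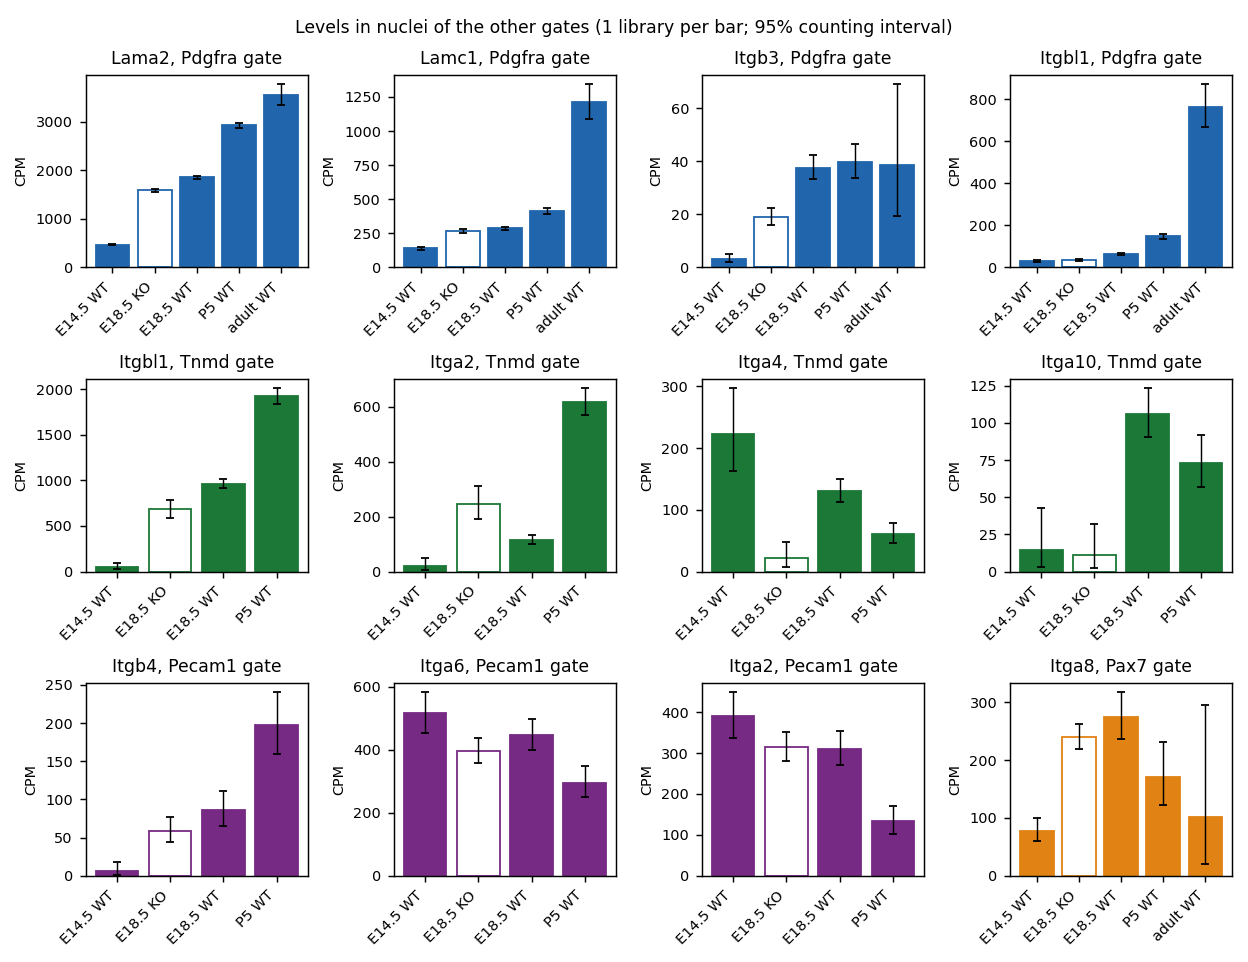
Levels of members outside myonuclei, in counts per 1000000 UMIs with 95% counting intervals, by library, with the KO (open bar) left of WT at E18.5. In Pdgfra nuclei Lama2 and Itgbl1 are highest in adult (3552 and 765.9 CPM), and in Tnmd nuclei Itgbl1 climbs over 48.5, 963.2 and 1923 CPM at E14.5, E18.5 and P5.

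Tnmd nuclei showed the steepest course of Itgbl1. It was 19.9-fold higher at E18.5 than at E14.5 (10.8 to 41.5), and stood at 1923 CPM at P5 and 963.2 CPM at E18.5, just under the threshold. Of 23 measured members, 5 were higher and 1 lower at E18.5 than at E14.5 (13.7% and 5.86% of all genes): Itga10 7.28-fold (2.45 to 35.7), Itga2 6.002-fold (2.30 to 22.3), and Itga7 and Lama3, whose intervals included 1, while Itgb8 was 2.82-fold lower (1.97 at the least). Between E18.5 and P5, 2 of 23 were higher and 2 lower (3.56% and 10.9% of all genes). Itga2 was at 617.7 CPM at P5 and 116.5 CPM at E18.5, 5.30-fold higher (4.48 to 6.31), in 102 of 184 nuclei, and Lama3 was 2.11-fold higher (1.67 with each nucleus weighted equally). Itga4 was 2.17-fold lower, a call that ended under TMM scaling at 1.93-fold, and Itga7 2.09-fold lower with an interval that included 1. The E14.5 class had 49 nuclei, since 127 of the 234 Tnmd-positive nuclei of that library also had at least 1% Ttn. In Tnmd nuclei at E14.5, E18.5 and P5 the mesenchymal markers summed to 5997, 14510 and 17880 CPM. The tendon markers summed to 2392, 3218 and 5058 CPM. The part of these sums in the stage differences was not tested.

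In the 41 Tnmd nuclei of the KO, 1 of the 4 collagen-binding alpha chains, Itga10, was lower than in WT and 1, Itga2, higher. Of 23 measured members, 4 were higher and 4 lower than in WT (5.44% and 13.8% of all genes). Itga10 was at 10.9 CPM in KO and 106.0 CPM in WT, 9.73-fold lower (3.27 to 47.7), and Itga4 at 21.8 and 130.9 CPM, 6.01-fold lower (2.71 to 16.6), with both called in every alternative, the smallest being 3.16- and 2.14-fold. Itga2 went the other way at 247.0 and 116.5 CPM, 2.12-fold higher (1.58 to 2.82), a call that ended in 4 alternatives, while Itga1 was at 268.8 and 261.8 CPM and Itga11 at 58.1 and 58.9 CPM. Lama3 was 3.21-fold higher (2.08 to 4.88). Itga5 and Itga8 were given above. The last 2 of the 8 were Itga7, 5.41-fold lower with an interval that included 1, and Itgb1bp2, 3.47-fold higher. The myonuclear markers summed to 3218 CPM in KO Tnmd nuclei and 937.7 CPM in WT ones, and the ratio of Itgb1bp2, a gene of myonuclei, was 0.561 when nuclei were counted in each class they met. The KO level of Itga10 is 3 UMIs, and that of Itga4 is 6 UMIs in 3 nuclei. The mesenchymal markers summed to 8307 CPM in KO Tnmd nuclei and 14510 CPM in WT ones, and the tendon markers to 2582 and 3218 CPM. The part of these marker sums in the differences was not tested.

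Pecam1 nuclei had more Itgb4 at E18.5 and P5 than at E14.5. Itgb4 was at 6.15, 86.0 and 196.9 CPM at E14.5, E18.5 and P5, 14.0-fold higher at E18.5 than at E14.5 (4.56 to 69.7) and 2.29-fold higher at P5 than at E18.5 (1.65 to 3.21, 1.86-fold with each nucleus weighted equally). Its partner Itga6 was at 514.7, 445.4 and 295.4 CPM over the same stages. Of 20 measured members, 5 were higher and 2 lower at E18.5 than at E14.5 (10.4% and 6.22% of all genes): Lamb2 3.63-fold, Lama5 2.46-fold, Itgb5 2.32-fold and Lama2 2.09-fold higher, with Itga4 5.04-fold (2.80 to 9.64) and Itgb1bp2 11.6-fold lower. The call of Lama2 ended in several alternatives, the lowest being 1.015-fold, and that of Itgb1bp2 turned to a ratio of 1.11 when nuclei were counted in each class they met. In Pecam1 nuclei at E18.5 and E14.5 the mesenchymal markers summed to 2249 and 516.7 CPM and the macrophage markers to 467.9 and 108.7 CPM. The myonuclear markers summed to 1064 and 1542 CPM. The part of these sums in the ratios was not tested.

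At P5, 5 of 21 members were higher than at E18.5 in Pecam1 nuclei and 1 lower (4.83% and 8.09% of all genes). Besides Itgb4 these were Itgb8, Itgbl1, Itga4 and Itgav, with Itga2 2.33-fold lower. Of these 6, the call of Itgb8 was kept in every alternative. The 15.5-fold ratio of Itgb8 rests on 64 UMIs in 12 of 93 nuclei, 42.2% of them in 1 nucleus, and the 26.2-fold ratio of Itgbl1 on 36 UMIs in 6 nuclei, 44.4% in 1. The 8 macrophage markers summed to 1153 CPM in this class at P5 and 467.9 CPM at E18.5, and the mesenchymal markers to 3953 and 2249 CPM, and their part in these ratios was not tested. The KO had 6 of 25 members higher and 1, Itga5, lower (8.49% and 5.86% of all genes). Besides Itga8, Itgb1bp2, Itgb8, Itgb6, Itga7 and Itga4 were 5.58-, 4.16-, 3.67-, 2.83- and 2.55-fold higher, and all 6 of these calls ended in at least 1 alternative. The myonuclear markers summed to 2906 CPM in KO Pecam1 nuclei and 1064 CPM in WT ones, the 8 Schwann cell markers to 203.0 and 52.2 CPM and the mesenchymal markers to 462.9 and 2249 CPM, and their part in these ratios, those of Itga5 and Fn1 included, was not tested.

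Pax7 nuclei had more Itga7, Itga1 and Itga8 and less Itga4 at E18.5 than at E14.5. There 4 of 19 measured members were higher and 3 lower at E18.5 than at E14.5 (5.99% and 7.33% of all genes). Itga7 was at 143.5 CPM at E18.5 and 34.0 CPM at E14.5, 4.22-fold higher (2.75 to 6.67), Itga1 at 172.8 and 32.8 CPM, 5.27-fold (3.44 to 8.32), and Itga8 at 275.4 and 77.8 CPM, 3.54-fold (2.65 to 4.78, 1.63-fold when nuclei were counted in each class they met). Lamc1 was 2.04-fold higher, ending as low as 1.07-fold in the alternatives. Itga4 fell to 19.0 CPM against 199.4 CPM, 10.5-fold lower (5.95 to 20.1), a fold close to the 10.6 of Ttn nuclei over the same interval. Itga9 was at 2 UMIs (2.93 CPM) against 60.8 CPM at E14.5, and Itgb6 7.47-fold lower, but the ratio of Itgb6 was 1.46 and that of Itga9 0.913 when nuclei were counted in each class they met.

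After birth few nuclei were left in the class, since 160 of 249 Pax7-positive nuclei at P5 and 160 of 185 in adult also had at least 1% Ttn. At P5, 0 of 14 members were higher than at E18.5 and 2 lower (4.09% and 10.9% of all genes), Itga1 3.21-fold and Lama5 2.41-fold. The first of these turned to a ratio of 1.30 with no filter on nuclei. In the 24 adult nuclei 1 of 9 was higher than at P5 and 1 lower (8.11% and 25.5% of all genes): Lama4 2.03-fold with an interval that included 1, and Lamb1 5.73-fold lower (1.54 to 48.0). Over the 4 stages Lama2 was at 1721, 2642, 3016 and 2829 CPM and Lamc1 at 228.5, 467.3, 622.3 and 740.9 CPM. In the KO, 6 of 24 members were higher than in WT and 0 lower (9.93% and 2.81% of all genes). Itga9 was at 41.3 CPM in KO, with 88 UMIs in 25 of 289 nuclei, and 2.93 CPM in WT, 14.1-fold higher (3.79 to 118), but 1.86-fold when nuclei were counted in each class they met. Lama3 and Lamb3 had no WT UMI and were at least 2.46- and 2.14-fold higher, counting the WT as 3 UMIs, the call of Lamb3 ending in 2 alternatives. The others were Itgb6 (3.92-fold, with a ratio of 0.681 under that same alternative) and Itga2 and Itgb1bp1, whose intervals included 1. In KO and WT Pax7 nuclei the myonuclear markers summed to 4224 and 2922 CPM, the Schwann cell markers to 89.6 and 20.5 CPM, the macrophage markers to 112.6 and 33.7 CPM and the mesenchymal markers to 1096 and 720.7 CPM, and their part was not tested.

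Genes that work with these chains were counted in 3 lists: 17 basement membrane partners of laminin, 24 cytoplasmic partners of integrins and 11 integrin ligands other than laminin. In adult Ttn nuclei, against P5, 10 of 16 measured basement membrane partners were lower and 1 higher, 9 of 22 cytoplasmic partners lower and 0 higher, and 5 of 6 ligands lower and 0 higher, where 27.4% of all genes were lower and 10.1% higher. Tnc, Bcam (a laminin alpha5 receptor), Sparc, Fn1 and Npnt (nephronectin) were 244-, 25.8-, 22.5-, 15.7- and 15.3-fold lower, and Col4a3, a type IV collagen chain, was 28.9-fold higher. In adult Pdgfra nuclei 8 of 16 basement membrane partners were higher and 2 lower, 5 of 20 cytoplasmic partners higher and 0 lower, and 0 of 9 ligands higher and 5 lower, where 8.55% of all genes were higher and 19.5% lower. Col4a3, Col4a4 and Col4a6 were 33.5-, 12.6- and 6.71-fold higher there. In the KO, by contrast, 1 of 16, 1 of 21 and 0 of 6 were higher in Ttn nuclei and 0, 0 and 3 lower (6.12% and 6.09% of all genes), the 3 ligands being Fn1, Tnc and Thbs1 (thrombospondin-1). In KO Pdgfra nuclei 3 of 16, 0 of 22 and 2 of 8 were higher and 1, 1 and 2 lower (7.29% and 5.09% of all genes). In KO Pax7 nuclei 1 of 14, 2 of 19 and 1 of 4 were higher and 1, 2 and 1 lower (9.93% and 2.81% of all genes). In the Pax7 class Npnt was at 30.5 CPM in KO and 4.39 CPM in WT. The WT value is the level of 3 UMIs in that class, the floor used here.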

How the data were processed

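Nuclei from 5 hindlimb libraries, 1 per group, were profiled for RNA and open chromatin together. The authors deposited count matrices from Cell Ranger ARC 2.0.0 (genome mm10), with whole-number UMI counts per gene and ATAC counts per peak, not normalized. The accessibility intervals treat ATAC counts as independent of each other, which was not checked. Peaks were called per library, so accessibility was compared only between classes of 1 library.

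Nuclei with more than 400 and fewer than 25000 UMIs, under 10% mitochondrial UMIs and fewer than 70000 ATAC counts were kept. No doublet caller was run, and nuclei in more than 1 class were left out. Counts were summed per class and library and scaled to CPM. Ratios have 95% conditional binomial intervals. A gene was measured with at least 20 UMIs on 1 side of a comparison, in classes of at least 20 nuclei, and called at 2-fold, and a count of 0 was set to a floor of 3 UMIs over the library. Named members were those called, with an interval excluding 1 unless stated. No p-value was computed.

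Alternatives were TMM scaling (edgeR 4.0.16, R 4.3.3), no filter on low counts or on nuclei, each nucleus weighted equally, a Ttn threshold of 2%, at least 2 marker UMIs, nuclei counted in every class they met, and a 1 kb promoter window. Sums and intervals were computed in Python 3.11.15 (scipy 1.17.1, pandas 2.3.3, numpy 2.4.6) and drawn with matplotlib 3.10.9, and the functions were tested on simulated data. Gene coordinates follow GENCODE vM21. The members and gene lists were chosen with earlier results of these data known. For 1 member no values are reported here, although it is included in the counts of members.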

Additional observations from a re-analysis of the deposited data

Results flagged for a closer look

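Some members were called in opposite directions in different nucleus classes under the same contrast, and none of these differences between classes was tested. Lama2 was higher at E18.5 than at E14.5 in Pdgfra nuclei (ratio 3.95) and Pecam1 nuclei (2.09) and lower in Ttn nuclei (0.461). Over the same interval Itga8 was higher in Pax7 nuclei (3.54) and lower in Pdgfra nuclei (0.341), and Itga9 was higher in Ttn nuclei (2.19) and lower in Pax7 nuclei (0.0482). Between E18.5 and P5, Itga2 was higher at P5 in Tnmd (5.30), Pdgfra (3.89) and Ttn nuclei (2.05) and lower in Pecam1 nuclei (0.430). Itga4 was higher at P5 in Pecam1 (3.10) and Ttn nuclei (2.48) and lower in Tnmd nuclei (0.462), and Itgb8 was higher in Pecam1 nuclei (15.5) and lower in Ttn nuclei (0.329). In adult against P5, Itgbl1 was higher in Pdgfra nuclei (5.17) and lower in Ttn nuclei (0.350). In KO against WT, Itga4 was higher in Pecam1 nuclei (2.55) and lower in Tnmd nuclei (0.167). Only for Lama2, in Pdgfra and Ttn nuclei, were opposite calls kept in every alternative. For the other members the call in at least 1 direction ended in at least 1 alternative. Itga9 in Pax7 nuclei reached 1.095-fold lower and Lama2 in Pecam1 nuclei 1.015-fold higher at the least. Itgbl1 in Ttn nuclei turned to 1.41-fold higher.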

How the results depend on the processing

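Of 130 called ratios with an interval excluding 1, 75 kept their call under every alternative run and 55 lost it under at least 1. TMM scaling left all 18 counts of called members within 1.5 times and moved 14 ratios. Without a filter on low counts the called members numbered 7 for KO over WT in Ttn nuclei, 11, 5 and 7 for the successive stages in Pax7 nuclei, 9 for P5 and 12 for KO in Pdgfra nuclei, 9 for P5 in Tnmd nuclei, and 18 for E18.5 and 13 for KO in Pecam1 nuclei. With each nucleus weighted equally they numbered 7 for KO in Ttn nuclei and 1 for adult in Pax7 nuclei. With no filter on nuclei they numbered 1 for P5 in Pax7 nuclei, 13 for KO in Pdgfra nuclei and 7 for P5 in Tnmd nuclei, and Itga1 in Pax7 nuclei at P5 turned to 1.30. With Ttn at 2% they numbered 4 for P5 in Pax7 nuclei and 16 for E18.5 in Tnmd nuclei, and in adult over P5 Itgb6 in Pdgfra nuclei turned to 0.991 and Itgbl1 in Ttn nuclei to 1.41. With at least 2 marker UMIs they numbered 7 for P5 in Tnmd nuclei and 3 for P5 and 4 for KO in Pecam1 nuclei. With nuclei counted in every class they met they numbered 7 for P5 and 19 for adult in Pax7 nuclei, 14 for E18.5 and 5 for KO in Tnmd nuclei and 3 for P5 in Pecam1 nuclei. Members apart from the other 4 classes then numbered 11 in adult Ttn, 11, 6 and 3 in E18.5, P5 and KO Pax7, 14 in KO Pdgfra, 7 in E14.5 Tnmd, and 9, 10 and 6 in E18.5, P5 and KO Pecam1 nuclei. Under the same setting Itga8 in Ttn nuclei at P5 turned to 1.02, Itgb6 in Pax7 nuclei to 1.46 for E18.5 over E14.5 and 0.681 for KO, Itgb1bp2 in Pecam1 nuclei to 1.11 for E18.5 over E14.5 and 0.819 for KO, and Itgb1bp2 in Tnmd nuclei to 0.561 for KO. A promoter window of 1 kb moved 38 of 427 accessibility values. The cause of these changes was not tested. No paired analysis was possible because each group had 1 library. For the same reason group, library, pooled limbs and sort cannot be told apart, and low members in small classes were limited by depth.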
